A study of Mus musculus with 75 samples.

Results

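Interferon-stimulated genes are the genes that cells switch on when interferon reaches them. The gene set was chosen by name: every probe set whose symbol is Ifit1, Ifit2, Ifit3, Isg15, Irf7, Oas1a, Oasl2, Usp18 or Rsad2. Of these 9 genes, 6 were found in the array's probe-to-gene table (Ifit1, Ifit2, Isg15, Irf7, Usp18 and Rsad2), out of 19147 genes with a symbol of their own. Ifit3, Oas1a and Oasl2 were not analysed here. Each gene has 1 probe set, except Rsad2 with 3, of which the brightest was used in both tissues.

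The arrays compared male CB1R-/- (KO) mice with control littermates (WT), both on a C57BL/6 background. From 2 months of age they ate a high-fat diet (59.4% of energy as fat) or regular chow (13%) for 14 weeks. AM251, an inverse agonist of the cannabinoid receptor CB1, was given by mouth at 10 mg/kg once a day for 2 days, or the methylcellulose vehicle alone, and tissue was taken on the morning after the second dose. The deletion is in the germline, so every tissue of the KO mice lacks CB1 and all KO groups carry it. The 8 combinations of diet, genotype and treatment were high-fat KO AM251, high-fat KO vehicle, high-fat WT AM251, high-fat WT vehicle, chow KO AM251, chow KO vehicle, chow WT AM251 and chow WT vehicle. Each was measured in liver (39 arrays) and in epididymal white fat (36 arrays), with 5 arrays a group except 4 for high-fat KO vehicle liver, 3 for high-fat KO vehicle fat and 3 for chow KO AM251 fat. All levels below are log2 of the deposited intensity, and each change is the first group's mean minus the second's on that scale.

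When a cell senses foreign nucleic acid it makes interferons, which bind receptor chains on the same or neighbouring cells and activate the kinases JAK1 and TYK2. The signal ends at a short promoter element of the target genes, the interferon-stimulated response element. Irf7 encodes a transcription factor that drives further interferon production. Ifit1 and Ifit2 encode RNA-binding proteins that limit viral translation, and Rsad2 encodes viperin, which makes a chain-terminating nucleotide. Isg15 encodes a ubiquitin-like protein attached to other proteins, and Usp18 encodes the protease that removes it and that also damps signalling at the type I receptor. In liver and fat both parenchymal cells and macrophages can express these genes.

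In the RefSeq annotation (GRCm38.p6), Ifit1 lies at chr19:34640889-34650009, Ifit2 at chr19:34550550-34576534, Irf7 at chr7:141263183-141266499, Isg15 at chr4:156199424-156200818, Rsad2 at chr12:26442743-26456452 and Usp18 at chr6:121245906-121270917. Promoter windows of 300 bases (250 before to 50 after a start) were matched for 5 of the 6 genes, all but Usp18. The core of the response element was searched as GAAANNGAAA on both strands, where N is any base. It was found in the windows of 3 of these 5 genes, Ifit1, Isg15 and Rsad2. Over all genes with a window it was found for 3.99% of 27025 genes, or in 3.44% of 32851 windows. Neither window of Ifit2 and not that of Irf7 held these letters. Those windows were chr19:34550444-34550743 and chr19:34550838-34551137 for Ifit2 and chr7:141266375-141266674 for Irf7. Their starts lie inside the gene spans given above, so the bases before those spans were searched only in part. Whether the element lies farther upstream was not tested. The 150 bases before the start of each matching gene follow, on the gene's own strand and with the matches in capitals. Ifit2 is added because it is the gene whose level changed. The Ifit2 stretch precedes a start inside the gene span given above, so nearly all of it lies within the annotated gene. In Isg15 the capitals hold 3 overlapping matches.
Ifit1, chr19:34640739-34640888, plus strand: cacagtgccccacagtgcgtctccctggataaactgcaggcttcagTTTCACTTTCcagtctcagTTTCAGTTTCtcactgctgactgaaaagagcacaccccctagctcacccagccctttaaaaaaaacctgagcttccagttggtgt
Isg15, chr4:156200819-156200968, minus strand: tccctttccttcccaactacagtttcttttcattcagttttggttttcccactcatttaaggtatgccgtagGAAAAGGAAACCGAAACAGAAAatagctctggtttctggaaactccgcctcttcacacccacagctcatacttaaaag
Rsad2, chr12:26456453-26456602, minus strand: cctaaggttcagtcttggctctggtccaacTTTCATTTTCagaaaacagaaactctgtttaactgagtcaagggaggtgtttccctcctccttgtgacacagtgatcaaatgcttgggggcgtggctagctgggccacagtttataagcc
Ifit2, chr19:34550544-34550693, plus strand: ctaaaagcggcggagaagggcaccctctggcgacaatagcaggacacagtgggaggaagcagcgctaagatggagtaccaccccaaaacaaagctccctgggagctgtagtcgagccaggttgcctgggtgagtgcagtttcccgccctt
The matches lay 104 to 76 bases before the start of Ifit1, 78 to 57 before that of Isg15 and 120 to 111 before that of Rsad2.

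Array medians were 25.8 to 28.7 intensity units in liver and 44.3 to 48 in fat, so the tissues' levels are not set against each other. The 7 measured hepatocyte markers stood at percentile 98.6 to 100 of all genes in liver. In fat 5 of them stood at percentile 14.2 to 47.99, while Cyp2e1 (99.8) and Hp (99.95) ranked near the top there too. The 7 adipocyte markers stood at percentile 94.2 to 99.97 in fat and 6.67 to 71.0 in liver. The 6 measured markers of epididymal epithelium set 1 fat array apart: their summed intensity was 11821.8 in high-fat WT AM251 array 36, 975.8 in array 37 of the same group, 799.1 in high-fat WT vehicle array 3 and 422.4 in high-fat KO AM251 array 49, against 204.7 to 289.3 in the other fat arrays. Neither probe set of Cnr1, the targeted gene, separated the genotypes. The first had a median of 5.83 in KO livers against 5.84 in WT livers, and of 5.44 in KO fat against 5.55 in WT fat, with overlapping ranges. The second had a median of 6.75 in KO fat against 6.20 in WT fat. Where these probes lie relative to the deleted part is not given in the sources used here, so they check no label. The 2 liver arrays least like the rest were chow KO vehicle arrays 17 and 15 (mean correlation over all genes 0.974 and 0.983), and the results that use them are also given without them. In fat the lowest values were those of high-fat WT AM251 array 36 (0.976), high-fat WT vehicle array 1 (0.977) and high-fat WT AM251 array 34 (0.978). Nothing says that the arrays of a group came from separate litters or days, so p-values measure the spread between these mice.

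Averaged over all liver arrays, Irf7 had the brightest probe set of the 6 genes (level 8.53, percentile 85.3 of all genes), then Rsad2 (7.88, percentile 79.1), Usp18 (7.36, percentile 73.2), Ifit1 (6.67, percentile 65.4), Ifit2 (6.36, percentile 61.8) and Isg15 (5.28, percentile 47.6). In fat the order was Rsad2 (9.17, percentile 84.3), Ifit2 (8.22, percentile 72.2), Irf7 (8.18, percentile 71.7), Usp18 (6.81, percentile 55.5), Ifit1 (6.52, percentile 52.3) and Isg15 (4.43, percentile 24.5). These are brightness ranks of single probes, not transcript amounts.

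In liver, Ifit2 was the gene of the set that passed the test between diets in vehicle-treated mice. In high-fat WT vehicle livers it stood at 6.42, 6.62, 6.80, 6.87 and 7.73, against 5.40, 5.95, 5.95, 6.29 and 6.42 in chow WT vehicle livers. The lowest high-fat array met the highest chow array, and the high-fat group held 1 array far above its other 4. Ifit2 rose by 0.88 ± 0.19 (SE), or 1.84-fold (limma, adjusted p = 0.0064), and 1 of the 6 genes passed, beside 1.69% of all genes. The call was lost when the spread was estimated from these 2 groups alone (adjusted p = 0.0972; 0.00114 to 0.0972 over 17 alternatives, of which 16 passed).

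The other 5 genes also had higher means in high-fat WT vehicle livers, without passing the test. Ifit1 stood at 6.63, 6.79, 7.11, 7.15 and 7.30 in high-fat WT vehicle livers, against 5.96, 6.12, 6.38, 6.42 and 6.60 in chow WT vehicle livers. These groups did not overlap, as was so for 2.91% of all genes, and the change was 0.70 ± 0.21 (adjusted p = 0.0784). Usp18 stood at 7.12, 7.41, 7.60, 7.73 and 7.77 in the high-fat group, against 6.46, 6.50, 6.68, 7.13 and 7.38 in the chow group. Its change was 0.70 ± 0.20 (adjusted p = 0.0527), which lies at the edge of the threshold: 7 of 17 alternatives called it, among them leaving out high-fat array 4 or chow array 2 or 5 (adjusted p 0.0179 to 0.0462). Ifit1 passed when the spread was estimated from these 2 groups alone (adjusted p = 0.0413). Rsad2 had a change of 0.45 ± 0.16 (adjusted p = 0.16), and its other 2 probe sets gave 0.41 and 0.58. For Irf7 the change was 0.20 ± 0.17, and for Isg15 0.12 ± 0.10. The median change of the 6 genes was 0.57, against -0.01 over all genes. At an unadjusted p under 0.05 were 4 of the 6, beside 2374 of 19147 genes.

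**Figure D1:**
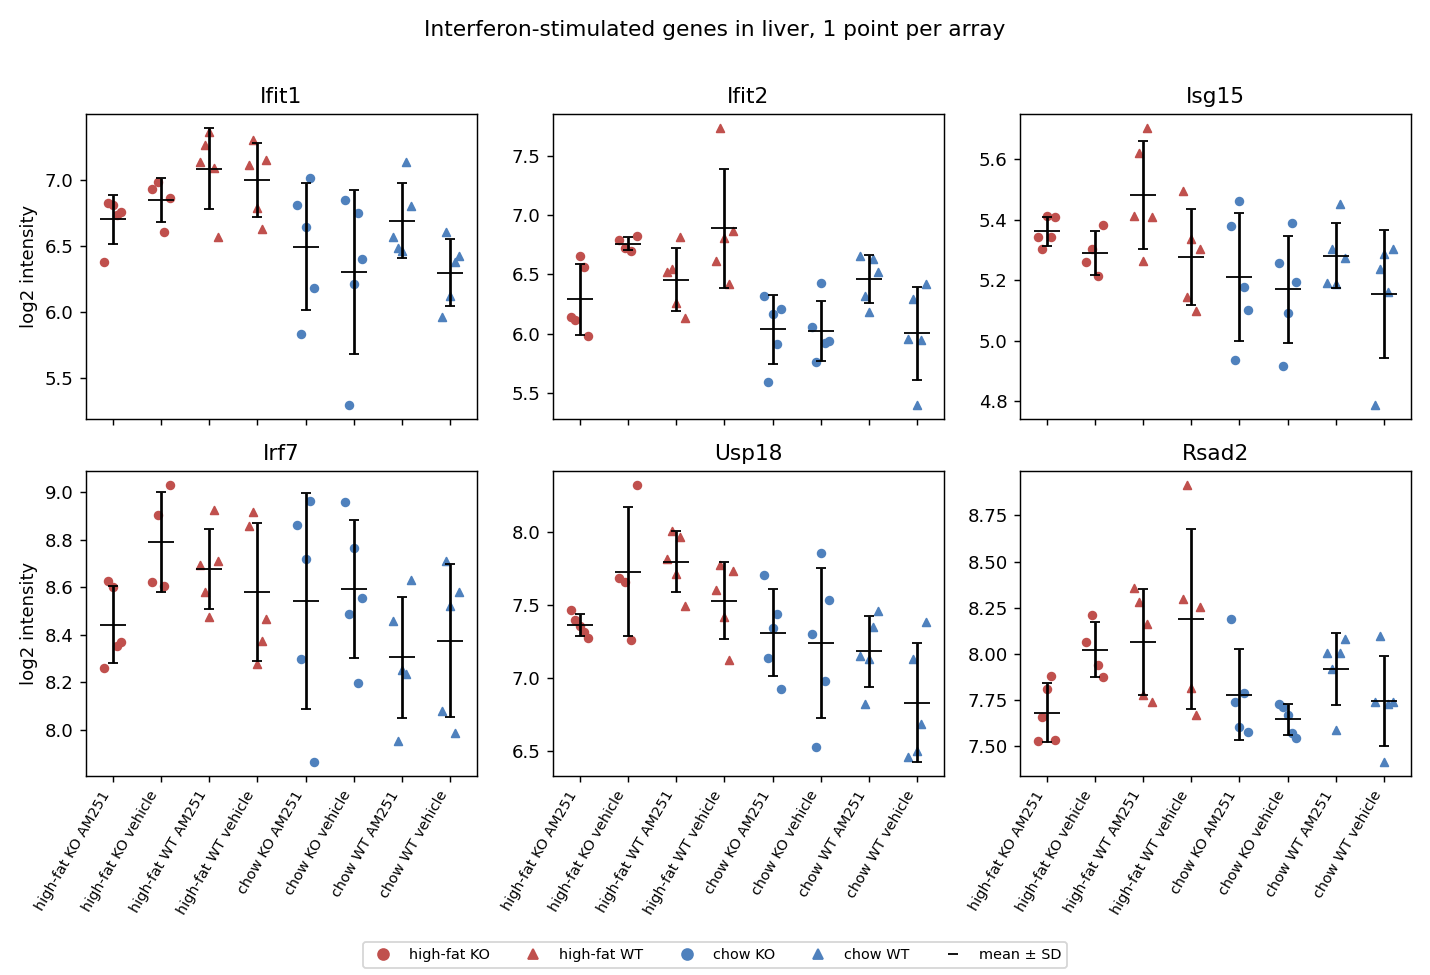
Log2 intensity (vertical axis) of the 6 genes in liver, 1 point per array, with the mean and SD of each of the 8 groups (circles KO, triangles WT, red high-fat, blue chow). Ifit2 lies at 6.42 to 7.73 in high-fat WT vehicle livers and 5.40 to 6.42 in chow WT vehicle livers, while Isg15 stays between 4.79 and 5.70 in every liver.

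The same comparison in KO livers gave the same call. Ifit2 stood at 6.70, 6.72, 6.79 and 6.83 in high-fat KO vehicle livers, against 5.77, 5.93, 5.94, 6.06 and 6.43 in chow KO vehicle livers. Every high-fat array lay above every chow array, and the 4 high-fat arrays were tightly grouped. Ifit2 rose by 0.74 ± 0.20, or 1.67-fold (limma, adjusted p = 0.00882). It passed under each of 16 alternatives, and without arrays 15 and 17 its change was 0.88 (adjusted p = 0.012). Here 17% of all genes passed and 12.5% had groups that did not overlap, so 1 of 6 genes called is near the background.

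Among the others in KO livers, Ifit1 changed by 0.54 ± 0.22 (adjusted p = 0.0849) and Usp18 by 0.49 ± 0.21 (adjusted p = 0.0941), neither past the threshold. Ifit1 passed without chow array 15 or 18 (adjusted p = 0.0373 and 0.042), and Usp18 without high-fat array 42 or chow array 17 (adjusted p = 0.0485 and 0.0342). Without arrays 15 and 17 together, Usp18 passed with a change of 0.72 (adjusted p = 0.0406; 0.0342 to 0.373 over 16 alternatives). Rsad2 stood at 7.87, 7.94, 8.06 and 8.21 in high-fat KO vehicle livers, against 7.54, 7.57, 7.67, 7.71 and 7.73 in chow KO vehicle livers, again without overlap. Its used probe set did not pass (0.38 ± 0.17, adjusted p = 0.109), whereas its dimmest probe set did (0.70 ± 0.23, adjusted p = 0.0294 in the fit of all probe sets). Irf7 changed by 0.20 ± 0.18 and Isg15 by 0.12 ± 0.11. All 6 changes were positive, with a median of 0.43 against -0.08 over all genes. No genotype difference of the diet effect under vehicle passed. The difference, KO minus WT, ran from -0.21 ± 0.28 for Usp18 to nearly 0 for Isg15. By limma 0 of 6 genes passed, beside 4.17% of all genes, and 0 had an unadjusted p under 0.05, beside 3604 of 19147.

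Under AM251 Ifit2 did not pass between diets in liver. Ifit2 stood at 6.14, 6.26, 6.52, 6.55 and 6.82 in high-fat WT AM251 livers, against 6.18, 6.32, 6.52, 6.63 and 6.66 in chow WT AM251 livers, a change of -0.01 ± 0.19. Both means lay between those of the vehicle groups. The difference between the 2 diet effects, AM251 minus vehicle, was -0.89 ± 0.26 in WT livers, which had an unadjusted p of 0.00168 but an adjusted p of 0.206, beside 0.251% of genes called. Usp18 groups were apart under AM251, with 7.49, 7.71, 7.82, 7.96 and 8.01 in high-fat WT AM251 livers against 6.82, 7.13, 7.15, 7.35 and 7.46 in chow WT AM251 livers. These groups did not overlap, as was so for 3.85% of genes. Its change of 0.62 ± 0.20 missed the threshold (adjusted p = 0.11, and 0.0156 to 0.304 over 16 alternatives). Of the 6 genes 0 passed, beside 1.96% of all genes, and 2 had an unadjusted p under 0.05, beside 1947 of 19147 genes. In KO AM251 livers the 6 diet changes ran from -0.10 to 0.25, and 0 of 6 passed, beside 2.64% of all genes. Before adjustment 0 of 6 had a p under 0.05, beside 3670 of 19147 genes.

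In epididymal fat Ifit2 again rose with the high-fat diet in WT mice. Ifit2 stood at 8.17, 8.30, 8.41, 8.56 and 8.59 in high-fat WT vehicle fat, against 7.89, 7.98, 8.06, 8.11 and 8.21 in chow WT vehicle fat. All but the lowest high-fat array lay above the chow group. Ifit2 rose by 0.35 ± 0.12, or 1.28-fold (limma, adjusted p = 0.0312), 1 of 6 genes, beside 24.5% of all genes, so 1 call among 6 does not set these genes apart there. Leaving out high-fat array 3, 4 or 6 or chow array 1 or 2 ended the call, with adjusted p from 0.0522 to 0.085 (0.0119 to 0.191 over 17 alternatives).

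With AM251 the WT fat comparison gave a change of the same size. Ifit2 stood at 8.38, 8.45, 8.52, 8.62 and 8.84 in high-fat WT AM251 fat, against 8.03, 8.13, 8.16, 8.27 and 8.29 in chow WT AM251 fat. The groups did not overlap, as was so for 5.8% of genes, and Ifit2 rose by 0.39 ± 0.12 (limma, adjusted p = 0.0406), beside 9.55% of all genes. The call ended without high-fat array 33, 35 or 36 or chow array 10, 11, 12 or 14 (adjusted p 0.0511 to 0.112). Without array 36, which carried the epididymal markers, the change was 0.40 (adjusted p = 0.0628). In KO vehicle fat Ifit2 stood at 8.33, 8.41 and 8.43 in the high-fat group, against 7.75, 7.85, 7.87, 8.04 and 8.07 in the chow group. These groups did not overlap either (5.21% of genes), yet the change of 0.48 ± 0.14 had an adjusted p of 0.388. In that comparison 0.00522% of all genes passed, and 2 of the 6 genes had an unadjusted p under 0.05, beside 1353 of 19147 genes. In KO AM251 fat Ifit2 changed by -0.01 ± 0.14, and 0 of 6 genes passed, beside 0.81% of all genes. Before adjustment 0 of 6 had a p under 0.05 there, beside 2470 of 19147 genes.

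None of the other 5 genes passed between diets in fat. Isg15 stood at 4.30, 4.59, 4.71, 4.73 and 4.75 in high-fat WT vehicle fat, against 4.26, 4.37, 4.39, 4.42 and 4.46 in chow WT vehicle fat, a change of 0.24 ± 0.10 (adjusted p = 0.0685). A single high-fat array, number 4, lay inside the chow range, and without it Isg15 passed with a change of 0.32 (adjusted p = 0.0141). Usp18 changed by 0.06 ± 0.16, Ifit1 by 0.16 ± 0.16, Rsad2 by 0.14 ± 0.14 and Irf7 by -0.10 ± 0.12 under vehicle in WT fat. In KO vehicle fat Rsad2 stood at 8.70, 8.90 and 9.09 in the high-fat group, against 8.93, 9.24, 9.40, 9.51 and 9.55 in the chow group, a change of -0.43 ± 0.16 (adjusted p = 0.513). The genotype difference of its diet effect, KO minus WT, was -0.58 ± 0.21 (adjusted p = 0.0979). In that comparison 0 of 6 genes passed, beside 6.34% of all genes, and 1 had an unadjusted p under 0.05, beside 3927 of 19147. Without chow KO array 19 the difference for Rsad2 was -0.68 and passed narrowly (adjusted p = 0.04999).

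**Figure D2:**
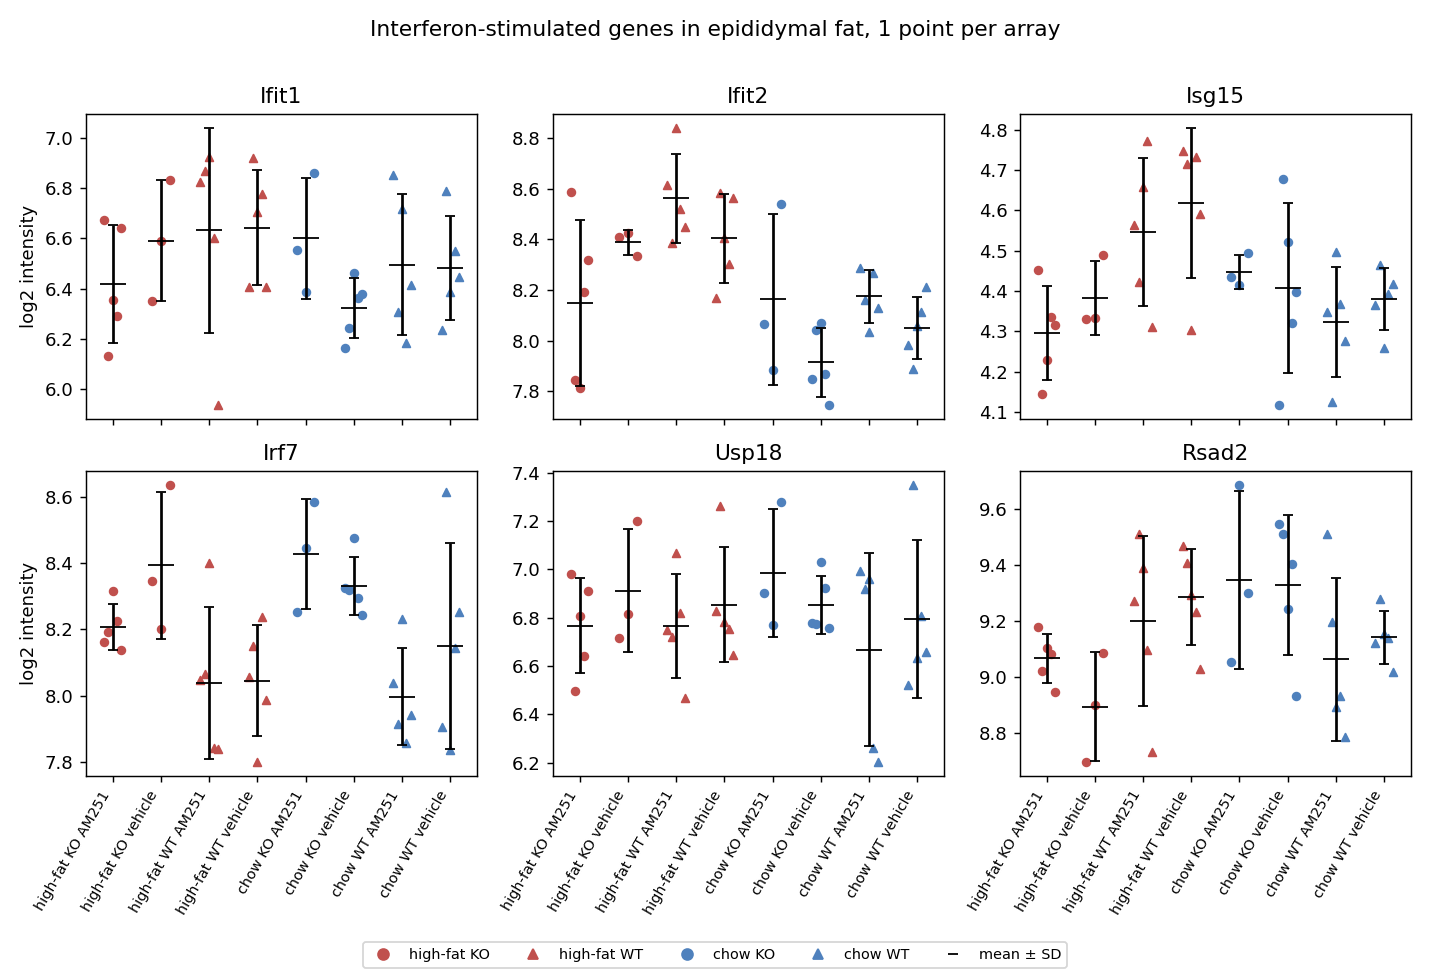
Log2 intensity (vertical axis) of the 6 genes in epididymal fat, drawn as for liver with the mean and SD of each group. Ifit2 lies at 8.38 to 8.84 in high-fat WT AM251 fat and at 8.03 to 8.29 in chow WT AM251 fat, and Usp18 and Ifit1 overlap across the 8 groups.

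Whether the liver and fat diet effects differ was tested in a fit of both tissues. For Usp18 the effect in WT vehicle fat minus that in liver was -0.64 ± 0.26 (adjusted p = 0.0922). Without fat array 3 of the high-fat WT vehicle group it was -0.74 (adjusted p = 0.045), and without liver array 5 of the chow WT vehicle group -0.78 (adjusted p = 0.0344). Ifit1 had a difference of -0.54 ± 0.27 and Ifit2 of -0.53 ± 0.23 (adjusted p = 0.191 and 0.119). None of the 6 genes passed with all arrays (limma), beside 14.2% of all genes. Before adjustment 2 of the 6 had a p under 0.05, beside 5138 of 19147 genes.

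With CB1 loss 1 gene of the set passed in 1 of 8 comparisons. In fat of AM251-treated mice on the high-fat diet, Ifit2 stood at 7.81, 7.84, 8.19, 8.32 and 8.59 in KO fat, against 8.38, 8.45, 8.52, 8.62 and 8.84 in WT fat. Only the highest KO array reached the WT range. Ifit2 fell by 0.41 on the log2 scale (SE 0.12, limma adjusted p = 0.0191). It was 1 of 6 genes, beside 15.2% of all genes, so 1 call among 6 is near the background. The call ended without KO array 46 or 48 or WT array 35 (adjusted p 0.0658 to 0.0855) and when the spread was estimated from these 2 groups alone (0.0921). Without array 36 it held, at -0.42 (adjusted p = 0.0315). Isg15 stood at 4.15, 4.23, 4.32, 4.34 and 4.45 in the same KO fat, against 4.31, 4.42, 4.56, 4.66 and 4.77 in WT fat, a change of -0.25 ± 0.10 (adjusted p = 0.0765). Isg15 passed without KO array 45 or WT array 37 (adjusted p = 0.0445 and 0.0284).

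Irf7 had positive changes with CB1 loss in all 4 fat comparisons, none past the threshold. In chow AM251 fat it stood at 8.25, 8.44 and 8.58 in KO mice, against 7.86, 7.92, 7.94, 8.04 and 8.23 in WT mice. The groups did not overlap, as was so for 12.4% of genes, and the change was 0.43 ± 0.14 (adjusted p = 0.0709). Without WT array 12, Irf7 passed (adjusted p = 0.045; 0.045 to 0.277 over 14 alternatives). In high-fat vehicle fat Irf7 changed by 0.35 ± 0.14 (adjusted p = 0.0796) and Rsad2 by -0.39 ± 0.16 (adjusted p = 0.0951). There 0 of 6 genes passed, beside 15.9% of all genes, and 3 had an unadjusted p under 0.05, beside 5151 of 19147. Without WT array 4 Isg15 passed with -0.31 (adjusted p = 0.0473). No gene of the 6 passed in chow vehicle or chow AM251 fat, where 0.0575% and 3.39% of all genes did. At an unadjusted p under 0.05 were 0 and 1 of the 6, beside 1733 and 3510 of 19147 genes.

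In liver, 0 of 6 genes passed in any of the 4 genotype comparisons by limma. At an unadjusted p under 0.05 were 0 in high-fat vehicle, 2 in high-fat AM251, 1 in chow vehicle and 1 in chow AM251 livers. Of all 19147 genes 2341, 2147, 4011 and 2604 had such a p, and 1.19%, 2.3%, 6.77% and 0.324% passed after adjustment. Under high-fat diet and AM251 all 6 changes were negative, from -0.44 to -0.12, with a median of -0.31 against -0.03 over all genes. Usp18 stood at 7.27, 7.31, 7.35, 7.40 and 7.47 in these KO livers, against 7.49, 7.71, 7.82, 7.96 and 8.01 in WT livers, so the groups did not overlap (4.16% of genes). Its change was -0.44 ± 0.20 (adjusted p = 0.363), and with the spread estimated from these 2 groups alone it passed (adjusted p = 0.0243). In chow vehicle livers Usp18 changed by 0.41 ± 0.20 (adjusted p = 0.221). Without KO array 16 that was 0.59 (adjusted p = 0.0493), and without arrays 15 and 17 it was 0.18 (adjusted p = 0.801).

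AM251 itself moved no gene of the set past the threshold in any of 8 comparisons by limma. In liver 1.91% of all genes passed in high-fat WT, 0.0104% in high-fat KO, 0% in chow WT and 0.125% in chow KO mice. Unadjusted p was under 0.05 for 2, 2, 1 and 0 of the 6, beside 2154, 644, 2066 and 2667 of 19147 genes. In fat the shares that passed were 1.11%, 0%, 0% and 0.0157% in the same order. There 0 of 6 genes had an unadjusted p under 0.05 in each, beside 2570, 712, 2559 and 1556 of 19147.

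Ifit2 had the largest AM251 change of the set in 3 of the 4 liver comparisons, none of them past the threshold. It changed by -0.43 ± 0.19 in high-fat WT livers (adjusted p = 0.335), by -0.47 ± 0.20 in high-fat KO livers (0.999), and by 0.46 ± 0.19 in chow WT livers (0.364). In high-fat KO livers Ifit2 stood at 5.98, 6.11, 6.14, 6.56 and 6.65 with AM251, against 6.70, 6.72, 6.79 and 6.83 with vehicle, without overlap (2.01% of genes). The vehicle groups here are those of the diet comparisons, so these values are not independent of the diet effect above. In chow KO livers the change of Ifit2 was 0.02 ± 0.19. Rsad2, Irf7 and Usp18 changed by -0.34 ± 0.17, -0.35 ± 0.18 and -0.37 ± 0.21 in high-fat KO livers, each with an adjusted p of 0.999.

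The AM251 effect did not differ between genotypes past the threshold in any of 4 comparisons. The difference, KO minus WT, was -0.64 ± 0.28 for Usp18 in high-fat livers (adjusted p = 0.584) and -0.40 ± 0.19 for Ifit2 in high-fat fat (0.446), the genes with an unadjusted p under 0.05. The shares of genes that passed were 0.564% and 0% in high-fat and chow livers and 0.407% and 0.00522% in high-fat and chow fat. At an unadjusted p under 0.05 were 1428 and 1437 of 19147 genes in these livers and 2070 and 2839 in this fat. In WT fat, the AM251 effect in high-fat minus chow mice was at most 0.15 for any of the 6 genes. There 0 of 6 passed, beside 0% of all genes, and 0 had an unadjusted p under 0.05, beside 2001 of 19147. The fat minus liver difference of the AM251 effect in high-fat WT mice was 0.59 ± 0.23 for Ifit2 (adjusted p = 0.213, beside 1.72% of all genes).

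**Figure D3:**
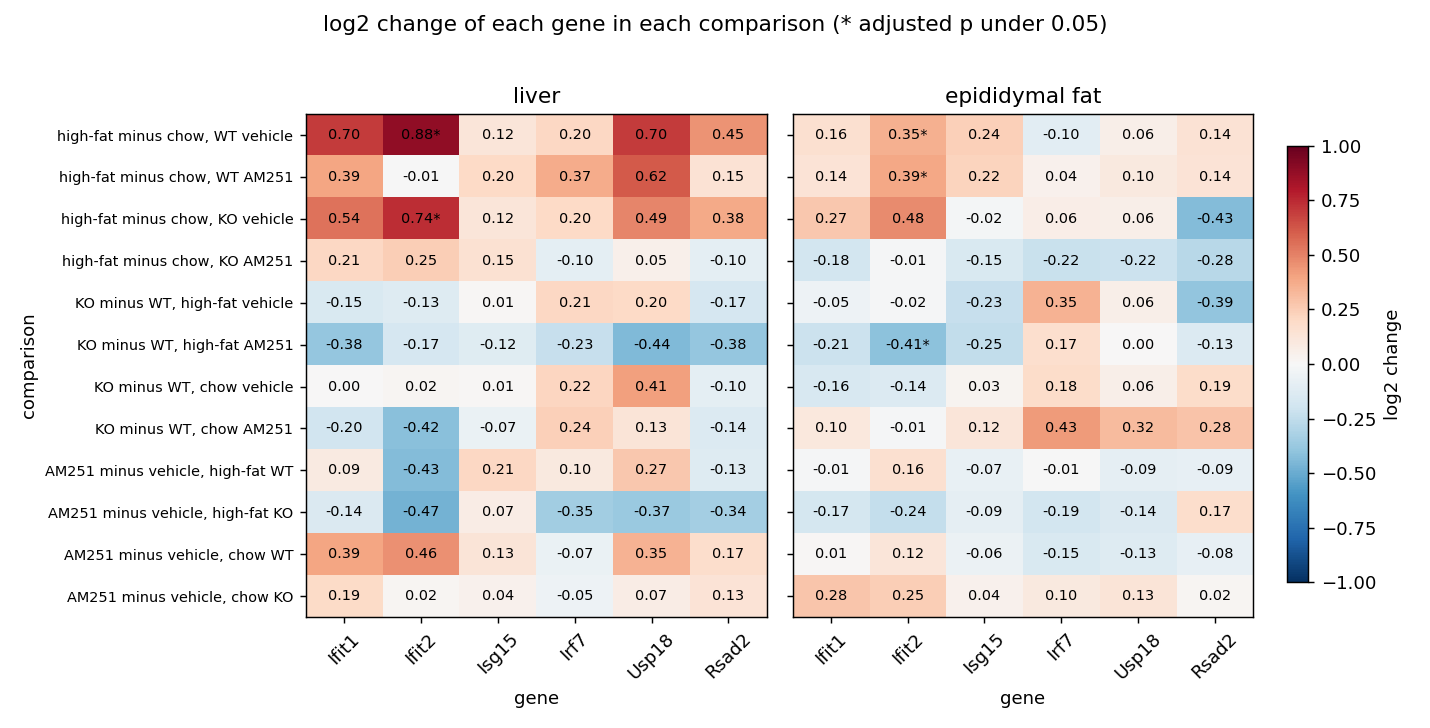
Log2 change of each of the 6 genes (columns) in the 12 comparisons (rows) of liver and epididymal fat, red where the first-named group is higher and blue where it is lower. A star marks an adjusted p under 0.05; the 5 stars all belong to Ifit2, from 0.88 in WT vehicle livers under the high-fat diet to -0.41 in KO fat under high-fat diet and AM251.

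The groups were also ordered by mean level. Of 84 neighbouring pairs over 6 genes and both tissues, 3 had a gap larger than the larger SD of the pair. Sorting places similar means side by side and the SD is that of single arrays, so this count does not test whether groups differ. For Ifit2 in liver the order was high-fat WT vehicle (6.89 ± 0.50, SD), high-fat KO vehicle (6.76 ± 0.06), chow WT AM251 (6.46 ± 0.20), high-fat WT AM251 (6.46 ± 0.27), high-fat KO AM251 (6.29 ± 0.30), chow KO AM251 (6.04 ± 0.29), chow KO vehicle (6.02 ± 0.25) and chow WT vehicle (6.00 ± 0.39). The gap below high-fat KO vehicle, 0.30, was the one that exceeded both SDs of its pair. The high-fat WT vehicle group, with an SD of 0.50, reached down to 6.42, so it was not set apart by this gap. In fat the order for Ifit2 was high-fat WT AM251 (8.56 ± 0.18), high-fat WT vehicle (8.40 ± 0.18), high-fat KO vehicle (8.39 ± 0.05), chow WT AM251 (8.17 ± 0.11), chow KO AM251 (8.16 ± 0.34), high-fat KO AM251 (8.15 ± 0.33), chow WT vehicle (8.05 ± 0.12) and chow KO vehicle (7.91 ± 0.14), with 1 gap over the spread, 0.21, below high-fat KO vehicle. The third was for Irf7 in fat, 0.12 between chow KO vehicle (8.33 ± 0.09) and high-fat KO AM251 (8.21 ± 0.07). Usp18 had the widest range of group means in liver, from 7.80 ± 0.21 in high-fat WT AM251 to 6.83 ± 0.41 in chow WT vehicle livers. Isg15 had the narrowest in liver, from 5.48 ± 0.18 to 5.15 ± 0.21 between the same groups.

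The rest of the pathway was read from gene lists in the order of the signal, in WT vehicle mice. In liver none of the 15 measured interferon genes, 6 receptor chains, 9 signal carriers, 13 nucleic acid sensors and adaptors or 9 inhibitors passed between diets, where 1.69% of all genes did. The 15 interferon genes lay from percentile 3.83 (Ifna12) to 71.1 (Ifna7) of all genes in liver. Ifnb1, the first interferon made in most cells, lay at percentile 9.51. Among 37 other genes that type I interferon induces, 5 rose and 0 fell, with a median change of 0.20. Ifi27l2a rose by 1.03 ± 0.22 (adjusted p = 0.00762), Cmpk2, a nucleotide kinase gene next to Rsad2, by 0.68 ± 0.15 (0.0104), Trim30a by 0.99 ± 0.24 (0.0213) and Phf11b by 0.47 ± 0.13 (0.0464). Of 22 genes classed with the interferon gamma response, 2 rose and 0 fell, the guanylate-binding proteins Gbp2 (0.85 ± 0.22, adjusted p = 0.0385) and Gbp3 (0.58 ± 0.16, adjusted p = 0.0435).

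In high-fat KO vehicle livers against chow KO vehicle livers, 9 of the 37 other targets rose and 1 fell, where 17% of all genes passed. The smallest p-values were those of Herc6, the main ISG15 ligase in the mouse (1.33 ± 0.19, adjusted p = 1.37e-05), Ifih1, which encodes the RNA sensor MDA5 (0.69 ± 0.12, adjusted p = 0.000162), Gm4951 (0.93 ± 0.18, adjusted p = 0.000356) and Slfn5 (0.65 ± 0.14, adjusted p = 0.000985). Of 13 sensors and adaptors 3 rose, Ifih1, Ddx58 (0.65 ± 0.18, adjusted p = 0.0121) and Tbk1 (0.51 ± 0.09, adjusted p = 0.000192), and 1 fell, Ticam1 (-0.44 ± 0.15, adjusted p = 0.0368). Ifih1 stands in both lists.

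Most macrophage markers had a higher mean in high-fat than in chow WT vehicle livers, though few passed and their sums overlapped. Of 14 measured, 2 rose (Mpeg1 and Itgax), beside 1.69% of all genes, and 13 had a positive change, with a median of 0.59. Their summed intensity was 4292 to 9507 (median 6764.5) in high-fat WT vehicle livers, against 2242 to 5775 (median 4389.6) in chow WT vehicle livers. The 6 Kupffer cell markers summed to 2344 to 5016 (median 4061) in the high-fat group, against 1072 to 3282 (median 2517) in the chow group. In KO livers the macrophage sum was 6742 to 7656 (median 7055) in high-fat vehicle mice, against 4483 to 7900.04 (median 6782) in chow vehicle mice, and 1 of 14 markers rose (median change 0.13), fewer than the 17% of all genes that passed. Summed plasmacytoid dendritic cell markers (7 genes) were 453.1 to 1040.4 in high-fat WT vehicle livers, against 325.2 to 440.9 in chow WT vehicle livers. These sums did not overlap, as was so for the levels of 2.91% of single genes, and 1 of the 7 markers rose. Tcf4 was the brightest of the 7 in liver (level 7.66), while Ccr9 and Klk1 lay at percentile 3.87 and 13.6 of all genes. Summed adipocyte markers had a median of 663.4 in the high-fat group, against 443.1 in the chow group. Pparg (level 7.18) and Fabp4 (6.96) were the brightest of them in liver, while Adipoq and Plin1 lay at percentile 6.67 and 22.5. Lyz2 was the dimmest of the macrophage markers in both tissues (percentile 1.01 of all genes in liver and 3.19 in fat). The part of these cells in the changes of the 6 genes was not tested. In whole tissue, fewer cells of a type and less RNA per cell cannot be told apart.

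In fat many genes upstream of the 6 passed between diets. Under the high-fat diet in WT vehicle mice 5 of 6 receptor chains rose, among them Ifngr2 (0.66 ± 0.12, adjusted p = 7.25e-05), Ifnar2 (0.52 ± 0.10, adjusted p = 0.000111), Il10rb (0.83 ± 0.21, adjusted p = 0.00306) and Ifnar1 (0.38 ± 0.10, adjusted p = 0.00542). Of 9 signal carriers 4 rose, the transcription factors Irf5 (1.35 ± 0.22, adjusted p = 2.99e-05), Irf8 (1.00 ± 0.17, adjusted p = 3.32e-05) and Irf1 (0.27 ± 0.10, adjusted p = 0.0449) and the kinase Tyk2 (0.43 ± 0.11, adjusted p = 0.00413). Among 13 sensors and adaptors 6 rose and 1 fell, with Tlr7 at 0.95 ± 0.14 (adjusted p = 8.48e-06) and the mitochondrial adaptor Mavs at -0.54 ± 0.09 (adjusted p = 2.83e-05). Of the 37 other targets 14 rose and 2 fell, with Slfn5 at 0.81 ± 0.11 (adjusted p = 4.74e-06) and Bst2, the tetherin gene, at 1.40 ± 0.24 (adjusted p = 4.12e-05). In the gamma list 10 of 22 rose, such as Cxcl10 (1.04 ± 0.17, adjusted p = 2.49e-05), 4 of 9 inhibitors rose and 1 fell, and 0 of 15 interferon genes passed. All of this stands beside 24.5% of all genes. Macrophage markers rose in 11 of 14 cases (median 0.87), and their sum was 21828 to 45992 (median 29913) in high-fat WT vehicle fat, against 12180 to 17093 (median 14184) in chow WT vehicle fat. Summed B cell markers (4 genes) were 287.8 to 682.4 in high-fat WT vehicle fat, against 150.5 to 224.8 in chow WT vehicle fat. Summed natural killer cell markers (5 genes) were 366.5 to 512.1, against 291.8 to 363.6. The macrophage, B cell and natural killer sums thus did not overlap between diets. Of 19147 single genes, 1535 lay higher and 1520 lower without overlap in this comparison. The part of these cells was not tested.

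**Figure D4:**
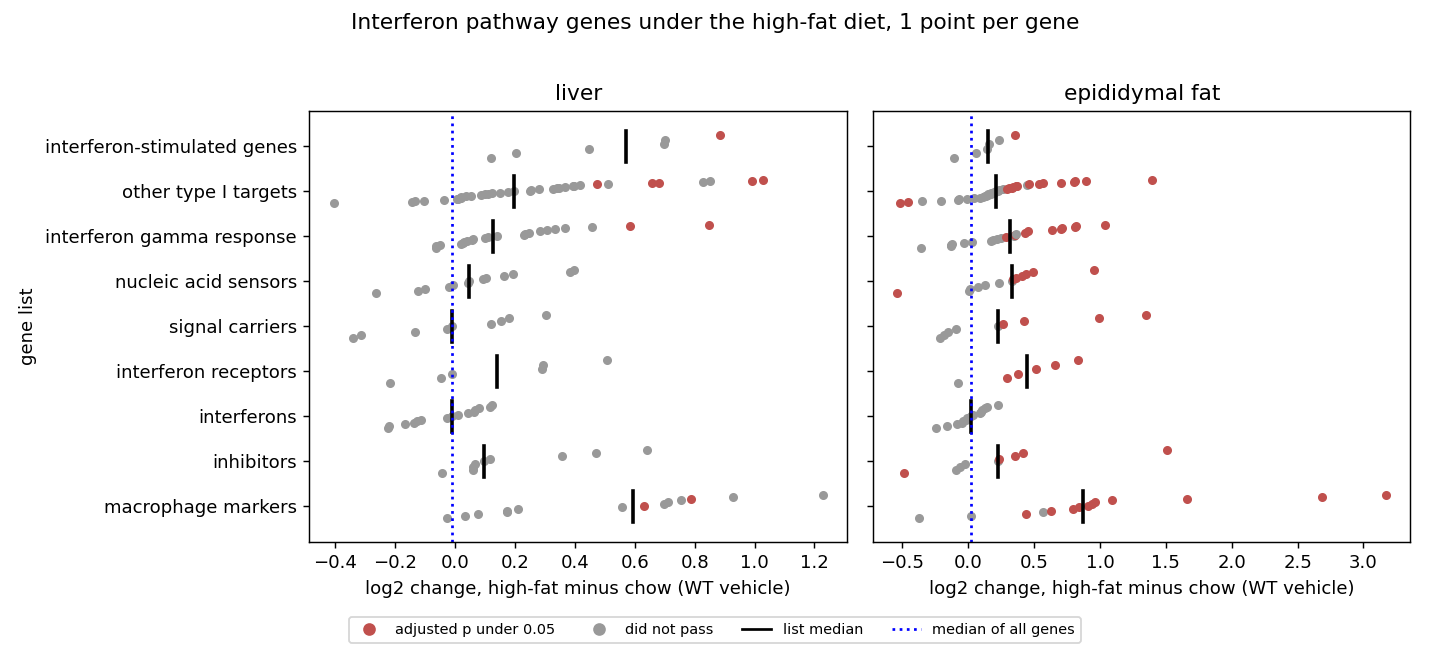
Log2 change between high-fat and chow WT vehicle mice (horizontal axis) for each gene of 9 lists (rows) in liver and epididymal fat, red where the adjusted p is under 0.05, with the list median as a bar and the median of all genes as a dotted line. The 6 interferon-stimulated genes have a median of 0.57 in liver and 0.15 in fat, and macrophage markers 0.59 and 0.87.

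Where Ifit2 was lower with CB1 loss, in high-fat AM251 fat, genes of the same lists fell. In this comparison 15.2% of all genes passed. Of the 37 other targets 8 fell and 1 rose, led by Slfn5 (-0.86 ± 0.11, adjusted p = 1.04e-05), Epsti1 (-0.81 ± 0.16, adjusted p = 0.000704), Uba7, the ISG15-activating enzyme gene (-0.60 ± 0.12, adjusted p = 0.000884), and Sp100 (-0.43 ± 0.09, adjusted p = 0.00115). Of the gamma list 7 of 22 fell, and 2 of 6 receptor chains fell, Ifngr1 (-0.44 ± 0.10, adjusted p = 0.00218) and Ifnar2 (-0.42 ± 0.10, adjusted p = 0.00251). Macrophage markers fell in 9 of 14 cases. Without array 36 the same counts fell in these 4 lists and 0 other targets rose, beside 12.1% of all genes. The macrophage sum was 13766 to 19541 (median 14003) in high-fat KO AM251 fat, against 18359 to 36607 (median 26238) in high-fat WT AM251 fat, and its part was not tested.

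Within groups, 5 of the 6 genes varied more than most genes in liver. The residual SD of Ifit1 was 0.357, at percentile 96.4 of all genes, with Usp18 at 95.2, Ifit2 at 94.1, Irf7 at 91.7 and Rsad2 at 88.3, while Isg15 stood at percentile 36.8. In fat they stood at percentile 84.9 (Usp18), 83.7 (Ifit1), 76.3 (Rsad2), 65.4 (Ifit2), 60.2 (Irf7) and 30.3 (Isg15).

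This variation was compared between the genes. After group means were removed, all 15 pairs had a positive correlation in liver (0.13 to 0.70, median 0.44, over 39 arrays) and in fat (0.02 to 0.76, median 0.38, over 36 arrays). Genes on 1 array share its RNA and its scaling, so no p is given. The share of positive pairs among all genes was not computed, so these counts do not set the 6 genes apart. The highest pair in liver was Ifit2 with Rsad2 (0.70), and in fat Ifit1 with Usp18 (0.76), whereas Ifit2 with Rsad2 had the lowest value in fat (0.02). In liver, array 4 of the high-fat WT vehicle group had all 6 genes below the group mean (by 0.36 on average). The same held in high-fat KO vehicle array 42, chow WT vehicle array 1, chow WT AM251 array 12 and chow KO AM251 array 21. All 6 lay above it in high-fat WT AM251 array 38 and chow WT vehicle array 2. So they did in chow KO vehicle array 15 and chow KO AM251 array 20. In fat, array 37 of the high-fat WT AM251 group had all 6 below (by 0.33 on average) and array 35 of that group all 6 above (by 0.26 on average). All 6 were also below in high-fat KO AM251 array 46 and chow WT vehicle array 1. So they were in chow WT AM251 array 14 and chow KO AM251 array 20. High-fat WT vehicle array 3 and chow WT AM251 array 10 had all 6 above.

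The genes most like the 6 were sought over all arrays of a tissue by Pearson correlation with the mean of their standardised levels. In fat, group means removed, the closest were Rtp4 (0.80), Nmi (0.76), Irf9 (0.74), Gm4951 (0.73), Ifi47 (0.73), Trim30a (0.70), Itgal (0.70), Gbp3 (0.69), Psmb9 (0.69) and Psmd1 (0.68). Of these, Rtp4, Gm4951 and Trim30a stand in the list of type I targets, Gbp3 and Psmb9 in the gamma list and Irf9 among the signal carriers. In liver, group means removed, the 10 closest ran from Srsf12 (0.70) to Tfdp1 (0.64), with 1 listed type I target, Oasl1 (0.66). With group means kept, the closest in liver were Gbp3 (0.73), Clec12a (0.72), Camk1 (0.71), Lgals3bp (0.71) and Spi1, a myeloid transcription factor (0.70), and in fat Irf9 (0.77), Nmi (0.76), Rtp4 (0.76), Gbp6 (0.72) and Dedd (0.71).

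Mouse numbers linked liver and fat of 21 mice in 6 conditions. For none of the 6 genes did the liver and fat deviations of a mouse go together past the threshold. Pearson's r between the deviations ran from -0.11 for Isg15 to 0.24 for Irf7 (permutation within groups, two-sided, 100000 resamples, lowest p = 0.287, 0.737 adjusted over the 6). Spearman's rho ran from -0.13 for Isg15 to 0.31 for Irf7 (permutation, lowest p = 0.230, 0.732 adjusted). Leaving out the 2 mice farthest out on the liver axis moved r to 0.42 for Rsad2, 0.20 for Irf7, 0.16 for Usp18, -0.10 for Isg15, -0.11 for Ifit2 and -0.26 for Ifit1, so that of Ifit2 changed sign.

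**Figure D5:**
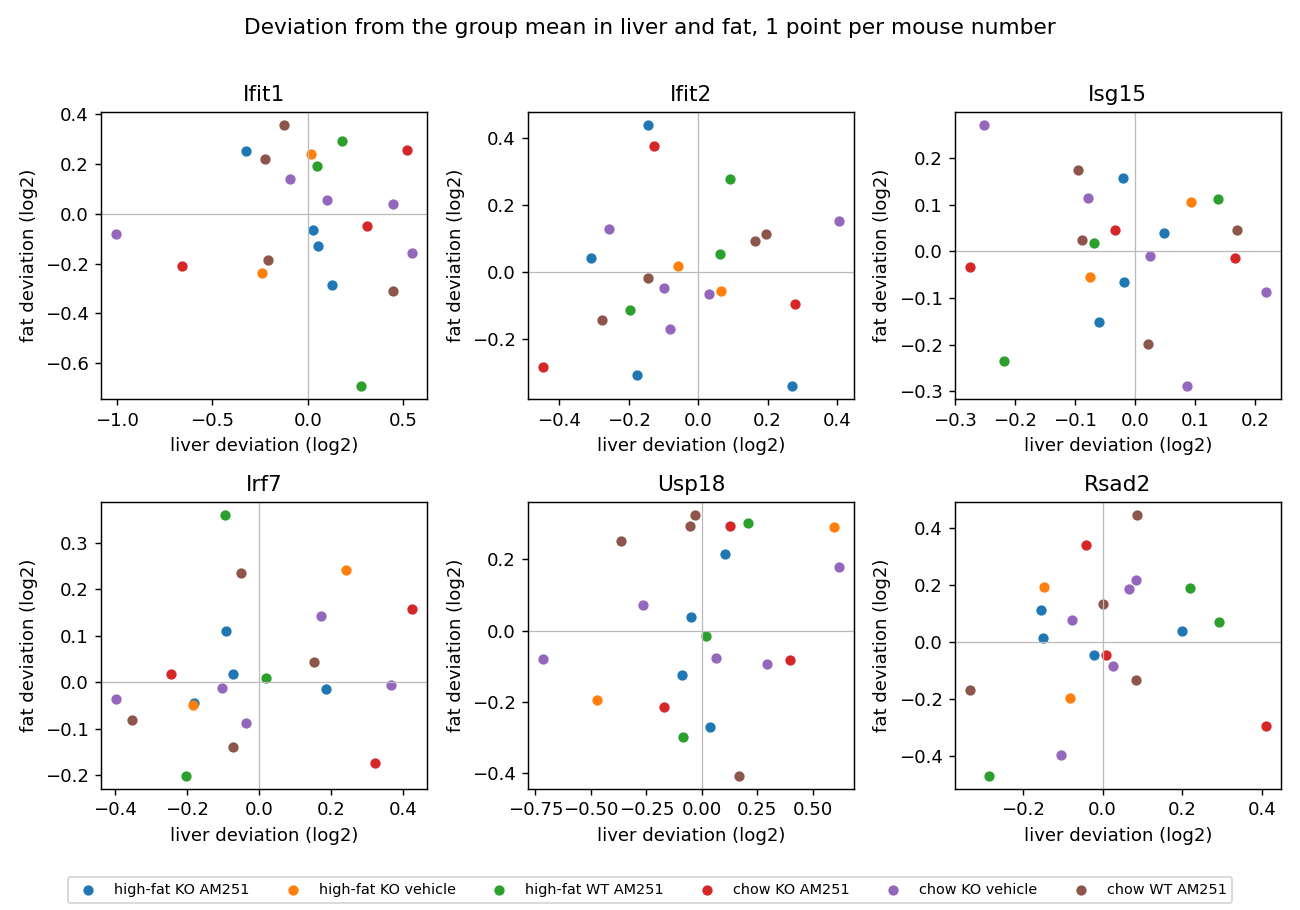
Deviation of each mouse from its group mean in liver (horizontal axis) and in fat (vertical axis) on the log2 scale, 1 point for each of 21 mouse numbers in 6 conditions. The points of the 6 genes scatter around both zero lines, with r from -0.11 (Isg15) to 0.24 (Irf7).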

How the data were processed

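Arrays of 1 colour measured RNA of liver (39 arrays) and epididymal fat (36). The authors deposited a table of linear intensities for 38385 probe sets. RMA, with no version given, is named per the submitters' processing notes. The intensities were used as deposited, with log2 taken. The probe table lists 24543 probe sets, of which 24478 have 1 gene symbol and 65 several; the brightest probe set in the tissue stood for each of 19147 genes. A limma fit (version 3.58.1, R 4.3.3) with 1 mean per group was made for each tissue, and of all 16 groups for tissue differences. Moderated two-sided p-values were adjusted by Benjamini-Hochberg over all genes, threshold 0.05. The fit was tested on simulated data. Named genes were the 9 listed members, up to 4 genes with the smallest p from each pathway list, and the 10 genes most like the members. Members and lists were chosen with earlier results of these data known. Alternatives were quantile normalization, an offset of 16, a filter on dim genes, the mean of probe sets, array weights, a fit of the compared groups alone, the sample number or mouse as a block, and leaving out each array. The number of arrays per group, 3 to 5, limits the precision. Promoter sequences are RefSeq's (GRCm38.p6).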

Additional observations from a re-analysis of the deposited data

Results flagged for a closer look

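Of 84 groups of 4 or 5 arrays examined for an array far from the rest, 2 held one, and chance flags about 1 in 20 such groups. Ifit1 in high-fat KO AM251 livers had its lowest value in array 45 at 6.38, with the other 4 arrays from 6.73 to 6.83. Isg15 in chow WT vehicle livers had its lowest value in array 1 at 4.79, with the other 4 from 5.16 to 5.30.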

How the results depend on the processing

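None of the 5 changes past the threshold was reversed under the alternatives run. Of all 204 changes of a gene in a comparison, 67 had both signs over their alternatives, none of them past the threshold with all arrays, such as Irf7 (-0.18 to 0.03) and Usp18 (-0.04 to 0.25) for diet in WT vehicle fat. Of the counts of genes past the threshold, 579 stayed close and 43 moved. With array weights the count was 2 for CB1 loss in high-fat AM251 fat and for diet in WT vehicle liver, and 1 for CB1 loss in high-fat vehicle fat, for the genotype difference of the diet effect in fat and for diet in WT AM251 liver. With only the compared groups fitted it was 0 for CB1 loss in high-fat AM251 fat, and 1 for CB1 loss in high-fat AM251 liver and diet in WT AM251 liver. With genes above the tissue's median alone it was 1 for CB1 loss in chow AM251 fat and 2 for diet in WT vehicle liver, where quantile normalization also gave 2. Without chow KO vehicle liver arrays 15 and 17, chosen after seeing the data, it was 2 for diet in KO vehicle liver. Leaving out each array in turn gave 0 to 2 for CB1 loss in high-fat AM251 fat, 1 to 2 for diet in WT vehicle and KO vehicle liver, and 0 to 1 for CB1 loss in high-fat vehicle fat, chow AM251 fat and chow vehicle liver, for diet in WT AM251 and WT vehicle fat, for the genotype difference of the diet effect in fat and for the tissue difference of the diet effect. The cause was not tested. The sample numbers of WT vehicle groups did not pair the arrays (correlation of same-numbered deviations -0.17 to 0.22 in liver and -0.13 to 0.06 in fat). With the sample number as a block the count was 2 for diet in WT vehicle liver, where Usp18 passed as well, and 0 for diet in WT vehicle fat, where Ifit2 had an adjusted p of 0.191. With the mouse or sample number as a random block across tissues (correlation 0.0387) no count of the tissue differences changed. The WT vehicle groups carry sample numbers, so there a block is not known to be 1 mouse. No detection calls were used here, so whether Isg15, at percentile 24.5 of all genes in fat, lies above background there was not tested.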
